A study of Mus musculus with 16 samples.

Results

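Desmosomes are the junctions that tie the keratin filaments of neighbouring epithelial cells together. Of 10 genes that encode their parts in keratinocytes, 8 had a row among the 14474 genes of the count table. They are the cadherins *Dsc3* and *Dsg3*, the plaque proteins *Dsp*, *Jup*, *Pkp1*, *Pkp2* and *Pkp3*, and the membrane protein *Perp*. *Dsc2* and *Dsg2*, the desmosomal cadherins that simple epithelia also use, had no row in the table and were not analysed here. The 10 genes were chosen by their function and by the very low level of *Dsc3* in vehicle-treated MKα3+ cells, which was known beforehand. The comparison of the lines in vehicle is therefore given as a description with no test.

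In a desmosome, desmocollins and desmogleins reach across the gap between cells and bind each other, and this binding needs calcium. Inside the cell, plakoglobin (*Jup*) and the plakophilins (*Pkp1*, *Pkp2* and *Pkp3*) bind the cadherin tails, and desmoplakin (*Dsp*) links them to keratin filaments. In skin, *Dsc3* and *Dsg3* are the cadherins typical of basal and lower suprabasal cells, and *Perp* is a tetraspan protein needed for stable desmosomes in stratified epithelia.

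The cells were immortalized mouse keratinocytes that lack α3 integrin (MKα3-) and cells of the same null line into which human α3 was put back (MKα3+). Each line received recombinant laminin-332 (LN332, the basement membrane ligand of integrin α3β1) at 0.02 mg/mL, or an equal volume of vehicle, for 16 to 24 h, which gave 4 groups with 4 replicates each. All cells grew on collagen in low-calcium medium, a condition that limits the assembly of desmosomes. The line comparison rests on 1 null line and 1 rescued line, and no label says whether replicates were separate cultures, so that p-values measure only the spread between these samples, which may be technical. The RNA-seq libraries held between 21735708 and 29338370 counts.

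The mouse gene *Itga3*, which encodes α3, had between 4530 and 8830 counts in every library of both lines. The restored α3 is human and the deleted part of the mouse gene is not given in the sources used here, so this count does not check the labels. All 7 markers of basal keratinocytes were in the table, with summed levels between 7849 and 17912 CPM (read counts scaled to a common library total after trimmed-mean, TMM, normalization), and the sums of the 4 groups overlapped. Most of that sum is *Krt5* and *Krt14*. Here and below, called means that the Benjamini-Hochberg adjusted p from limma-voom was under 0.05 and the log2 fold change, up or down, over 0.5. Taken 1 by 1, 6 of the 7 had a negative log2 fold change between MKα3+ and MKα3- cells with LN332, with a median of -0.80 (-0.54 with vehicle), and *Krt5* and *Trp63* were called lower. The summed levels of the other cell types were between 11.4 and 39.4 CPM for 4 of 6 fibroblast markers, between 4.70 and 10.6 CPM for 2 of 5 melanocyte markers, between 3.16 and 5.77 CPM for 3 of 3 endothelial markers and between 12.9 and 60.0 CPM for 3 of 4 leukocyte markers, and the rest of each list had no row. For differentiated keratinocytes, 2 of 5 markers were in the table, at a sum between 5.72 and 13.0 CPM. Both, *Krt10* (-0.54) and *Ivl* (-1.16), were called lower in MKα3+ cells with LN332, where 8.92% of all genes were. With vehicle, 0 of them were called. The melanocyte marker *Pmel* was called lower in MKα3+ cells with LN332 (-0.93) and with vehicle (-1.26). The leukocyte marker *Itgam* had a mean of 15.3 CPM in vehicle-treated MKα3+ cells, against 2.11 CPM in MKα3- cells, a difference that was called, and of 10.6 and 2.26 CPM with LN332, which was not (adjusted p = 0.245). The summed level of the 4 markers of simple epithelium was between 1936 and 3277 CPM in MKα3- cells and between 4072 and 5459 CPM in MKα3+ cells, without overlap. Of these, 3 were called higher in MKα3+ cells with LN332, *Krt7* (0.78), *Krt8* (1.12) and *Krt19* (5.90), where 11.7% of all genes were. *Krt18* was not called (0.07, adjusted p = 0.842). Whether these differences in marker genes have a part in the results below was not tested. In bulk RNA, fewer cells that express a gene and less RNA per cell cannot be told apart.

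Among LN332-treated cells, *Dsc3*, *Pkp2* and *Perp* were lower in MKα3+ than in MKα3- cells, by 171-fold, 9.39-fold and 1.73-fold in mean CPM. The other 5 genes did not pass the test, and 0 of the 8 were higher. Of all genes tested, 20.6% were called in this comparison, 8.92% lower in MKα3+ cells and 11.7% higher. The same 3 genes were those whose groups did not overlap, against 12.9% of all genes that were lower in MKα3+ cells without overlap. All 8 fitted log2 fold changes were negative, with a median of -0.31, where the median of all genes was 0.0062. The LN332-treated libraries share none with the vehicle-treated ones, but both come from the same lines and enter the same fit. The call of *Dsc3* with LN332 is therefore no independent support, since its low level in MKα3+ cells was known beforehand. Among vehicle-treated cells the same 8 genes had a median log2 fold change of -0.43, and 3 of them, with 18.5% of all genes, were beyond the same limits, from which nothing is read because *Dsc3* was known there.

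**Figure D1:**
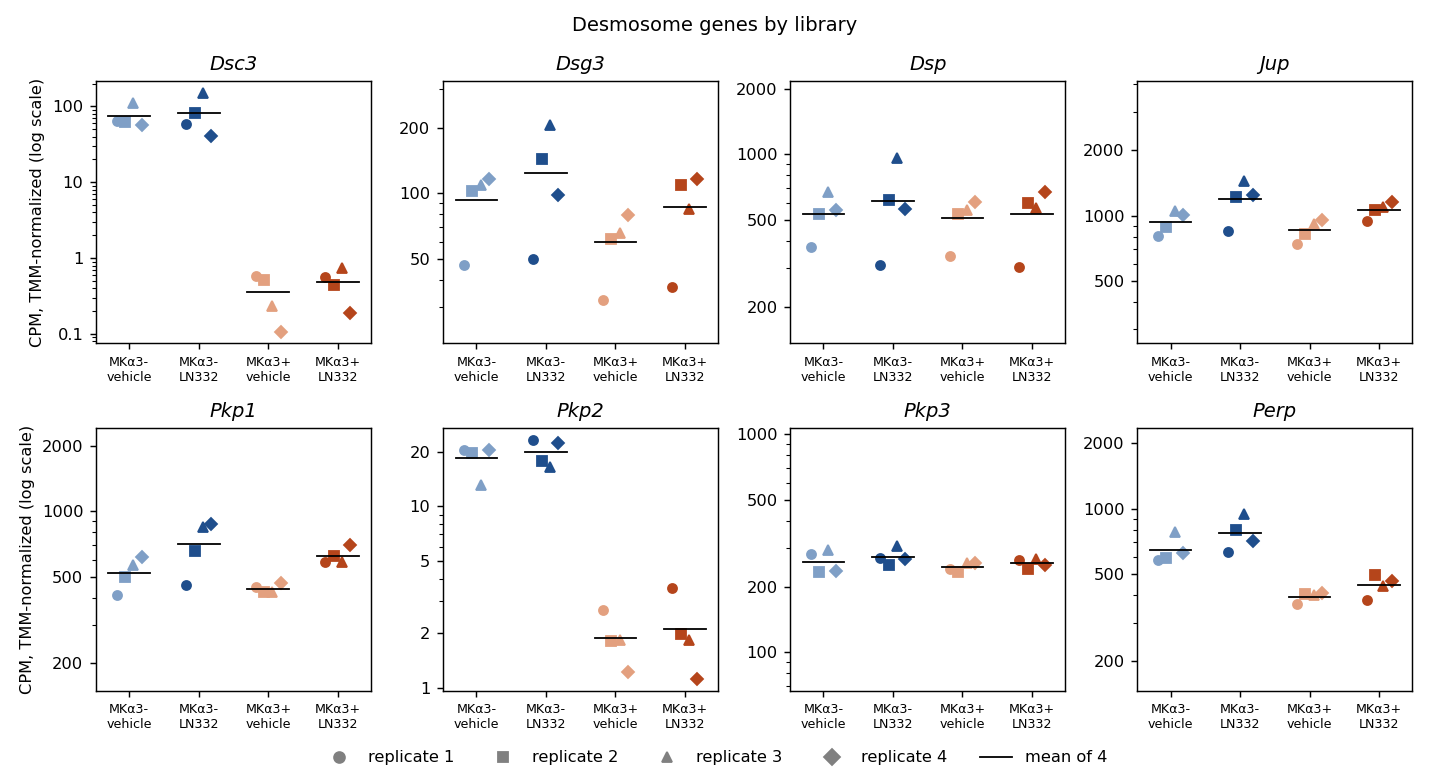
TMM-normalized CPM of the 8 desmosome genes (log scale) in each of the 16 libraries, by group. Each point is 1 library with its replicate number as marker, and each line is the mean of 4. *Dsc3*, *Pkp2* and *Perp* are lower in every MKα3+ library than in every MKα3- library, and the other genes overlap between the lines.

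Of the cadherins, *Dsc3* (desmocollin 3, Entrez 13507, mm10 chromosome 18, 19960930 to 20002410) separated the lines most. In MKα3- replicates 1 to 4 it was at 64.7, 63.0, 112 and 57.0 CPM with vehicle and at 58.9, 81.0, 150 and 40.8 CPM with LN332. In MKα3+ replicates 1 to 4 it was at 0.582, 0.521, 0.235 and 0.108 CPM with vehicle and at 0.562, 0.447, 0.739 and 0.187 CPM with LN332. Every MKα3+ library was thus far below every MKα3- library, and the lines did not overlap under either treatment. The MKα3+ levels rest on few reads, between 3 and 19 counts per library, against between 834 and 4190 in MKα3- cells. With LN332 the mean was 82.8 ± 48.0 CPM (SD, n = 4) in MKα3- and 0.484 ± 0.231 CPM (SD, n = 4) in MKα3+ cells. The gene was lower by 7.36 on the log2 scale (SE 0.95, adjusted p = 1.62e-05 from limma-voom). This p is not read as support, since the low level of *Dsc3* in this line was known when the genes were chosen. In vehicle the difference was -7.81 (SE 1.04).

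*Dsg3* (desmoglein 3, Entrez 13512, chromosome 18, 20510274 to 20541310) lies 549 kb from *Dsc3*, counted between their lower coordinates, and was abundant in both lines. In MKα3- replicates 1 to 4 it was at 46.9, 102, 109 and 116 CPM with vehicle and at 50.1, 143, 206 and 98.1 CPM with LN332. In MKα3+ replicates 1 to 4 it was at 32.5, 61.4, 65.8 and 79.5 CPM with vehicle and at 37.0, 110, 84.8 and 116 CPM with LN332. The lines overlapped under both treatments, and replicate 1 was the lowest in each group. With LN332 the log2 difference between the lines was -0.46 (SE 0.42, adjusted p = 0.436), with a 95% interval from -1.36 to 0.43. In vehicle it was -0.64 (SE 0.43).

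Per kilobase of exon, *Dsc3* and *Dsg3* were at nearly equal levels in vehicle-treated MKα3- cells, 13.7 ± 4.69 and 13.4 ± 4.53 CPM per kb (SD, n = 4). In vehicle-treated MKα3+ cells they were at 0.0669 ± 0.0420 and 8.57 ± 2.83 CPM per kb. *Dsc3* thus made up 51.1% ± 11.5 of the sum of both cadherins in MKα3- cells with vehicle and 46.5% ± 10.8 with LN332. In MKα3+ cells its share was 0.996% ± 0.927 with vehicle and 0.943% ± 0.756 with LN332 (SD, n = 4).

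The plakophilins bind the cadherin tails beside plakoglobin, and they differed among themselves. *Pkp2* (plakophilin 2, Entrez 67451, chromosome 16, 16213345 to 16272712), the plakophilin with the widest tissue range, was at 20.3, 19.7, 13.1 and 20.4 CPM in MKα3- replicates 1 to 4 with vehicle and at 23.2, 17.8, 16.4 and 22.2 CPM with LN332. In MKα3+ replicates 1 to 4 it was at 2.69, 1.80, 1.84 and 1.22 CPM with vehicle and at 3.53, 1.99, 1.83 and 1.12 CPM with LN332. The highest MKα3+ library was well below the lowest MKα3- library. With LN332 the means were 19.9 ± 3.27 and 2.12 ± 1.02 CPM (SD, n = 4), and *Pkp2* fell by 3.32 on the log2 scale (SE 0.31, adjusted p = 3.21e-07). In vehicle the difference was -3.30 (SE 0.31). *Pkp2* was the lowest of the 3 plakophilins in both lines, at 1.75% ± 0.563 of their sum per kb in LN332-treated MKα3- cells and 0.205% ± 0.102 in LN332-treated MKα3+ cells.

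*Pkp3* (Entrez 56460, chromosome 7, 141078229 to 141090511), the plakophilin found through all epidermal layers, had the narrowest span of group means of the 8 genes, 0.15 on the log2 CPM scale. With LN332 it was at 271, 251, 306 and 267 CPM in MKα3- replicates 1 to 4 and at 265, 242, 268 and 251 CPM in MKα3+ replicates 1 to 4. With vehicle it was between 232 and 293 CPM in MKα3- and between 233 and 256 CPM in MKα3+ cells. The lines overlapped under both treatments. The 95% interval of the log2 difference with LN332 was narrow, from -0.28 to 0.10 (estimate -0.09, SE 0.09, adjusted p = 0.485).

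*Pkp1* (Entrez 18772, chromosome 1, 135871394 to 135919207), which is strongest in suprabasal skin, was at 413, 499, 566 and 613 CPM in MKα3- replicates 1 to 4 with vehicle and at 458, 653, 850 and 876 CPM with LN332. In MKα3+ replicates 1 to 4 it was at 448, 424, 424 and 470 CPM with vehicle and at 587, 622, 582 and 702 CPM with LN332. The lines overlapped, but within MKα3+ cells every LN332 library was above every vehicle library. The log2 difference between the lines with LN332 was -0.15 (SE 0.17, adjusted p = 0.537), with a 95% interval from -0.50 to 0.21.

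Plakoglobin and desmoplakin, which every desmosome contains, were at high levels in both lines. *Jup* (Entrez 16480, chromosome 11, 100368856 to 100397839) was at 853, 1218, 1443 and 1240 CPM in MKα3- replicates 1 to 4 with LN332 and at 941, 1063, 1096 and 1155 CPM in MKα3+ replicates 1 to 4. *Dsp* (Entrez 109620, chromosome 13, 38151294 to 38198577) was at 312, 617, 964 and 558 CPM in MKα3- replicates 1 to 4 with LN332 and at 305, 595, 564 and 672 CPM in MKα3+ replicates 1 to 4. For both genes the lines overlapped, and replicate 1 was the lowest library of each group. The log2 difference between the lines with LN332 was -0.14 for *Jup* (SE 0.14, adjusted p = 0.495), with a 95% interval from -0.44 to 0.16. For *Dsp* it was -0.15 (SE 0.30, adjusted p = 0.744), with a wider interval from -0.77 to 0.48. With vehicle *Jup* was between 803 and 1047 CPM in MKα3- and between 743 and 951 CPM in MKα3+ cells, and *Dsp* between 375 and 671 CPM and between 343 and 605 CPM. The *Dsp* count is uncertain to a small degree, since 499 bases of its exons overlap a gene on the opposite strand and the sources used here name no strand setting.

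*Perp* (Entrez 64058, chromosome 10, 18845071 to 18857073), a target gene of p53 and p63, was at 583, 592, 781 and 625 CPM in MKα3- replicates 1 to 4 with vehicle and at 632, 801, 943 and 711 CPM with LN332. In MKα3+ replicates 1 to 4 it was at 364, 407, 401 and 408 CPM with vehicle and at 380, 494, 443 and 467 CPM with LN332. All 8 MKα3+ libraries were below all 8 MKα3- libraries. With LN332 the means were 772 ± 134 and 446 ± 48.7 CPM (SD, n = 4), and *Perp* fell by 0.78 on the log2 scale (SE 0.13, adjusted p = 1.47e-04). In vehicle the difference was -0.70 (SE 0.12).

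The order of the genes by level per kilobase of exon was nearly the same in both lines. In vehicle-treated MKα3- cells it ran from *Perp* (331 ± 47.3 CPM per kb) through *Jup* (145 ± 17.2), *Pkp1* (104 ± 17.3), *Pkp3* (72.0 ± 8.55), *Dsp* (55.2 ± 12.6), *Dsc3* (13.7 ± 4.69) and *Dsg3* (13.4 ± 4.53) to *Pkp2* (3.43 ± 0.663, SD, n = 4). Libraries of neighbours in that order overlapped for *Pkp3* with *Dsp* and for *Dsc3* with *Dsg3*, and for no other neighbours. In vehicle-treated MKα3+ cells the first 5 stood in the same order, *Dsg3* and *Pkp2* came next (8.57 ± 2.83 and 0.353 ± 0.113 CPM per kb), and *Dsc3* was last.

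**Figure D2:**
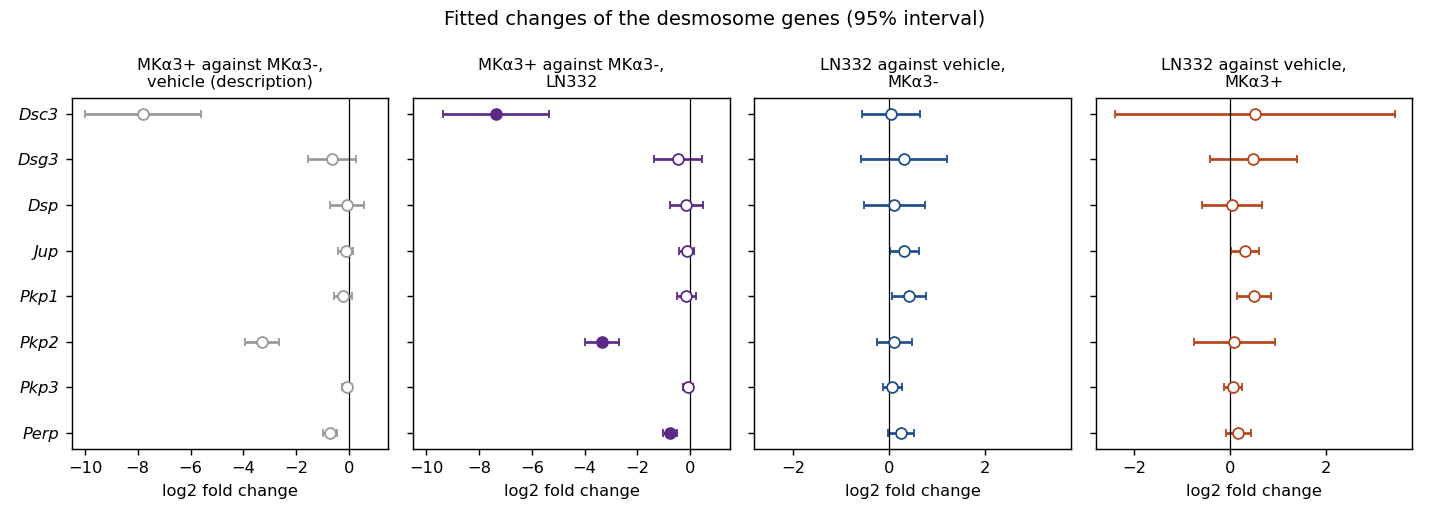
Fitted log2 fold changes of the 8 genes with 95% intervals in 4 comparisons. Filled points were called, and the vehicle comparison of the lines is shown in gray as a description. *Dsc3*, *Pkp2* and *Perp* are filled in the line comparison with LN332, and no point is filled in the panels of LN332 against vehicle, where all 8 estimates are above 0.

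The second question was whether the desmosome genes responded to added LN332. None of the 8 passed the limma-voom test in either line, and edgeR's quasi-likelihood test and DESeq2 also called 0 in each. Of all genes, 0.187% were called in MKα3+ and 0.304% in MKα3- cells. At an unadjusted p under 0.05 there were 2 genes in each line, *Pkp1* and *Jup*. All 8 estimates were positive in both lines, with a median of 0.24 in MKα3+ and 0.18 in MKα3- cells, where the medians of all genes were -0.0067 and -0.0056. When counts were scaled by library size and not by TMM, the estimates of *Dsp* and *Pkp3* in MKα3+ and of *Dsc3* and *Pkp3* in MKα3- cells turned negative.

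*Pkp1* had the lowest p of the 8 in both lines. Its mean was 441 ± 22.3 CPM with vehicle and 623 ± 55.3 CPM with LN332 in MKα3+ cells, a log2 difference of 0.49 (SE 0.16, 95% interval from 0.15 to 0.84, adjusted p = 0.271). The LN332 and vehicle libraries did not overlap there, which 4.78% of all genes showed in the same direction. In MKα3- cells its mean was 523 ± 87.1 CPM with vehicle and 709 ± 195 CPM with LN332, a log2 difference of 0.41 (SE 0.17, 95% interval from 0.06 to 0.77, adjusted p = 0.286), and the libraries overlapped. No gene of the 8 separated the treatments without overlap in MKα3- cells, against 2.29% of all genes that were higher with LN332. The call of *Pkp1* depends on the weights and on 1 library: it passed in MKα3+ cells with sample quality weights (0.51, adjusted p = 0.00291, where the highest adjusted p over the alternatives was 0.283), and in MKα3- cells without LN332 replicate 1 (0.60, adjusted p = 0.0350).

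For *Jup* the log2 difference was 0.31 in MKα3+ (SE 0.14, adjusted p = 0.485) and 0.33 in MKα3- cells (SE 0.14, adjusted p = 0.321), with 95% intervals from 0.02 to 0.61 and from 0.03 to 0.63. Over the alternatives besides leaving out a library, its adjusted p ran from 0.033 to 0.503 in MKα3+ and from 0.0397 to 0.616 in MKα3- cells. The estimates, from 0.24 to 0.32 and from 0.25 to 0.40, stayed under the fold limit of 0.5. For *Perp* it was 0.17 (SE 0.12, adjusted p = 0.770) and 0.25 (SE 0.13, adjusted p = 0.405). For *Dsc3* in MKα3+ cells the estimate was 0.51, but at these counts its 95% interval reached from -2.41 to 3.43, so that a response of the gene was not detectable at this depth. In MKα3- cells, where *Dsc3* was well counted, the interval was from -0.55 to 0.65. The LN332 responses of the 2 lines were also compared directly: 0 of the 8 genes differed, as did 0% of all genes, and the smallest unadjusted p among the 8 was 0.661 (0 under 0.05, and 0 called by edgeR or DESeq2).

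The spread between the replicates of a group differed from gene to gene. In LN332-treated MKα3- cells the coefficient of variation was 58.0% for *Dsc3*, 53.5% for *Dsg3* and 43.8% for *Dsp*, against 8.40% for *Pkp3*. In LN332-treated MKα3+ cells *Pkp2*, at low counts, had the highest, 47.9%, beside 47.8% for *Dsc3*, 41.3% for *Dsg3* and 29.8% for *Dsp*. Part of the spread went with the replicate number. *Dsg3*, *Dsp*, *Jup* and *Perp* had their lowest value in replicate 1 in all 4 groups, as had 8.88% of all genes. The mean log2 deviation of replicate 1 from its group was -0.99 for *Dsg3*, -0.66 for *Dsp*, -0.26 for *Jup* and -0.19 for *Perp*. *Dsc3* went another way and was lowest in replicate 4 in all 4 groups, as were 1.65% of all genes. *Pkp3* was highest in replicate 3 in all 4 groups, with deviations of at most 0.18. The share of all genes that were highest in replicate 3 throughout is not given here, so nothing is read from it. The labels do not say what the replicate number stands for. Without the 4 libraries of replicate 1, *Dsc3*, *Pkp2* and *Perp* were still the genes called between the lines with LN332, 3 of 8. The share of all genes called in that fit is not given here.

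**Figure D3:**
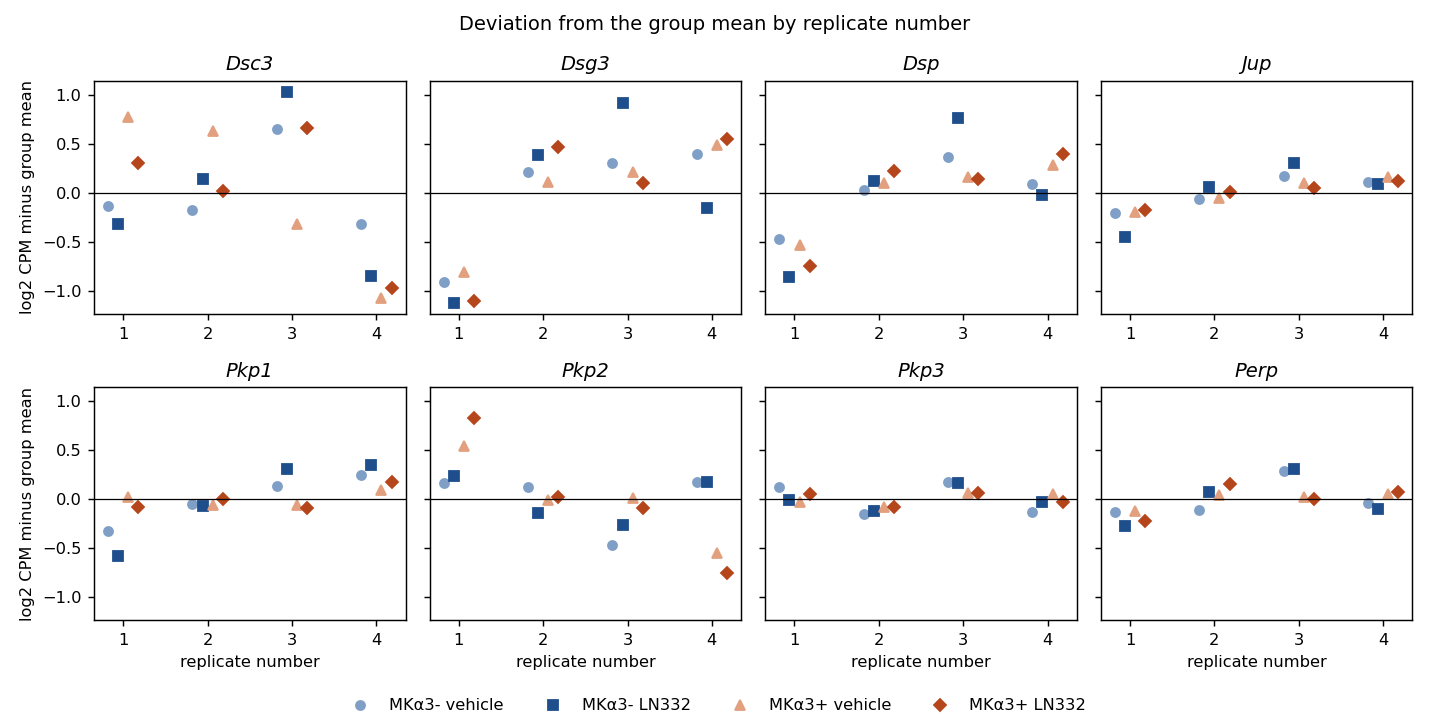
Log2 CPM of each library minus the mean of its group, by replicate number, for the 8 genes; marker shape and colour give the group. *Dsg3*, *Dsp*, *Jup* and *Perp* lie below 0 in replicate 1 of all 4 groups, and *Dsc3* lies lowest in replicate 4.

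Of 9 further desmosome genes, 4 had a row, and 1 was called between the lines with LN332, where 20.6% of all genes were. *Cdsn*, which encodes the corneodesmosome protein corneodesmosin, was higher in MKα3+ cells, at 28.0 ± 6.20 against 15.2 ± 4.43 CPM (log2 fold change 0.92, SE 0.21, adjusted p = 0.00252). *Pkp4*, an armadillo protein of both junction types, was at 101 ± 4.58 against 78.8 ± 3.67 CPM, and its log2 fold change of 0.36 (SE 0.08, adjusted p = 0.00142) was under the fold limit. The plakins *Ppl* and *Evpl* gave -0.21 (SE 0.16) and -0.08 (SE 0.16). The median log2 fold change of the 4 was 0.14.

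The keratins to which desmosomes attach were called in both directions. Of 11 listed keratins 10 had a row. With LN332, 2 were higher and 3 lower in MKα3+ cells, where 11.7% and 8.92% of all genes were. The median log2 fold change was -0.24. *Krt8*, a keratin of simple epithelia, was at 1761 ± 177 against 808 ± 94.5 CPM (log2 fold change 1.12, SE 0.11, adjusted p = 7.36e-07). *Krt17*, a keratin of appendages and wounds, was at 1536 ± 240 against 930 ± 54.5 CPM (0.71, SE 0.15, adjusted p = 0.00155). The basal keratin *Krt5* was at 2764 ± 488 against 5003 ± 1693 CPM (-0.80, SE 0.23, adjusted p = 0.0117). The wound keratin *Krt6a* was at 902 ± 103 against 1853 ± 994 CPM (-0.89, SE 0.30, adjusted p = 0.0337). For both genes the libraries of the lines overlapped. The differentiation keratin *Krt10* was the other one called lower, at -0.54 (SE 0.19). Its level was low, 4.99 ± 0.605 against 7.38 ± 1.42 CPM, and the lines overlapped. *Krt15* (-1.96, SE 0.77, adjusted p = 0.0592) and *Krt6b* (-0.82, SE 0.31, adjusted p = 0.0535) missed the threshold in limma-voom, and both were called lower by edgeR (adjusted p = 0.00803 and 0.0229) and by DESeq2 (adjusted p = 4.07e-04 and 0.0211). *Krt15* was at very low levels, 0.809 ± 0.351 against 3.48 ± 2.18 CPM. For *Krt15* the lines did not overlap under either treatment, and for *Krt6b* they overlapped under both. With LN332, 12.9% of all genes were lower in MKα3+ cells without overlap. In vehicle *Krt15* was called lower by limma-voom (-2.64, SE 0.72, adjusted p = 0.0107), where 18.5% of all genes were called in either direction. *Krt14*, the partner of *Krt5*, did not pass (0.30, SE 0.22, adjusted p = 0.308). For LN332 against vehicle, *Krt8* in MKα3- cells was the only gene of these lists that was called (0.55 on the log2 scale, SE 0.10, adjusted p = 0.0326). In MKα3+ cells its estimate was close, 0.45 (SE 0.11, adjusted p = 0.135, and 0.00478 with DESeq2), under the fold limit. There, too, every LN332 library was above every vehicle library, as for 4.78% of all genes. The difference of the 2 responses was -0.10 (SE 0.15) and was not called.

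Adherens junctions, the actin-linked junctions that stand closest to desmosomes in their build, were given by 13 genes, all with a row. With LN332, 3 were higher and 1 lower in MKα3+ cells, where 11.7% and 8.92% of all genes were. The median log2 fold change was 0.38, against -0.31 for the 8 desmosome genes. The latter lies between the values of *Dsg3* and *Pkp1*, neither of them called, in a set chosen with the low *Dsc3* known. *Cdh1* (E-cadherin) was at 637 ± 106 against 369 ± 108 CPM (log2 fold change 0.82, SE 0.17, adjusted p = 0.00166). *Nectin3* was at 23.4 ± 2.90 against 11.8 ± 1.69 CPM (0.98, SE 0.14, adjusted p = 4.41e-05), and *Afdn*, which links nectins to actin, at 379 ± 75.7 against 250 ± 26.4 CPM (0.59, SE 0.14, adjusted p = 0.00317). *Nectin1* was lower, at 154 ± 32.7 against 241 ± 72.2 CPM (-0.62, SE 0.22, adjusted p = 0.0373), and its lines overlapped. The desmosome and adherens junction lists were not tested against each other.

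Of 20 listed regulators of desmosome genes or of junction turnover, 19 had a row. With LN332, 3 were higher and 3 lower in MKα3+ cells, where 11.7% and 8.92% of all genes were. The median log2 fold change was 0.02. *Snai2* (Slug), a repressor of epithelial genes, was lower, at 17.6 ± 2.06 against 44.3 ± 12.6 CPM (-1.29, SE 0.20, adjusted p = 8.69e-05). *Zeb2*, a repressor of the same kind, was higher at a low level, at 4.18 ± 1.42 against 1.83 ± 0.395 CPM (1.13, SE 0.32, adjusted p = 0.0126). *Grhl3*, a transcription factor of epidermal differentiation, was at 24.7 ± 4.40 against 48.7 ± 12.7 CPM (-0.97, SE 0.19, adjusted p = 9.15e-04). *Trp63*, the master regulator of basal keratinocytes, was at 53.4 ± 15.4 against 101 ± 36.6 CPM (-0.91, SE 0.26, adjusted p = 0.0128). *Adam15* (0.68, SE 0.15) and *Prkca* (0.57, SE 0.13) were the other 2 called, both higher.

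**Figure D4:**
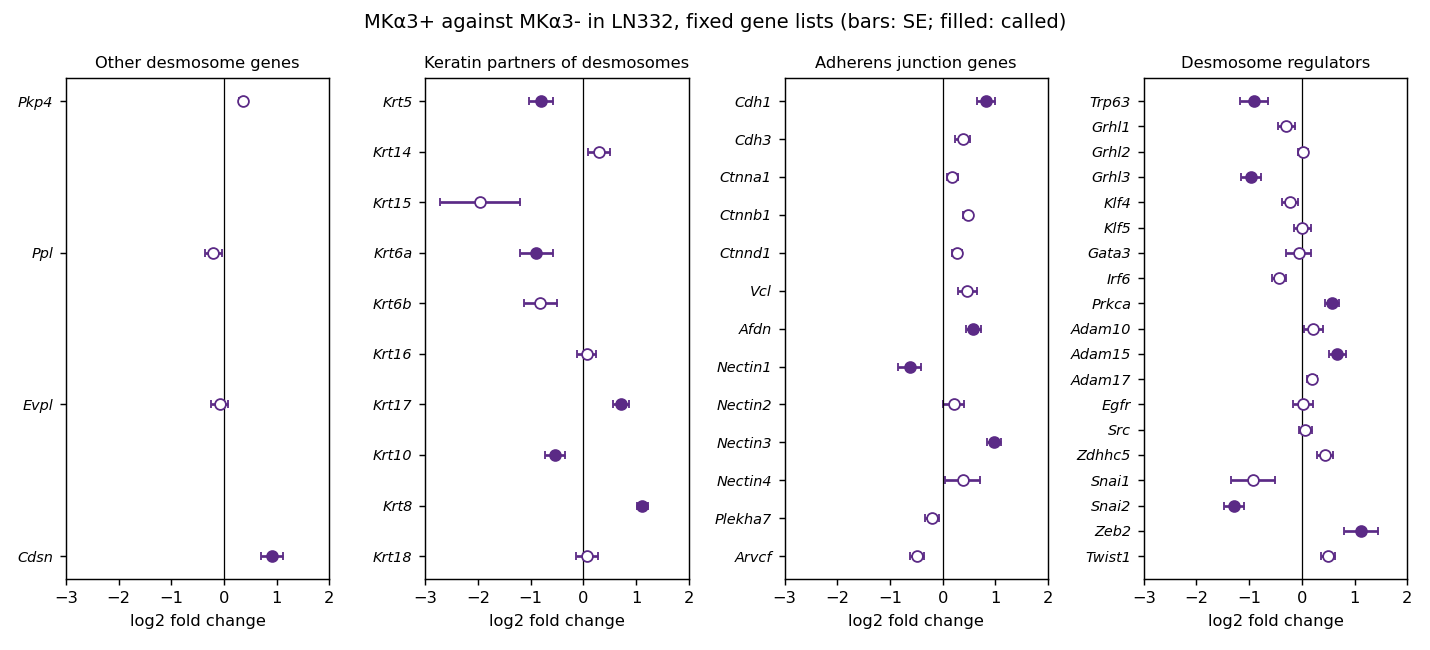
Log2 fold change between MKα3+ and MKα3- cells with LN332 for the genes of 4 lists with a row in the table. Bars are SE, and filled points passed the test. *Krt8*, *Zeb2*, *Nectin3* and *Cdsn* stand to the right of 0 and *Snai2* to the left, while *Krt15* at -1.96 has a wide bar and did not pass in limma-voom.

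The desmosomal cadherin genes lie side by side on chromosome 18, and the neighbours with a row are given with their values. Of the 9 desmosomal cadherin genes there, 2 were in the table. Of the 17 protein-coding genes that start within 1 Mb of a cadherin of the set, 7 were in the table, and of the 5 that are no desmosome gene 0 were called between the lines with LN332, where 20.6% of all genes were. The other 10 protein-coding genes had no row, among them 7 cadherins of the cluster, and the nearest gene with a row that is no desmosome gene, *Ttr*, lies 703 kb from *Dsc3*. These values do not show how far the low level of *Dsc3* extends. *Ttr* (-0.55, SE 0.53) and *B4galt6* (0.60, SE 0.64) were at about 1 CPM or less and had wide errors. *Trappc8* (0.06, SE 0.09), *Rnf138* (0.17, SE 0.13) and *Garem1* (0.08, SE 0.35) were better counted, at 46.0, 29.7 and 12.9 CPM in LN332-treated MKα3+ cells.

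**Figure D5:**
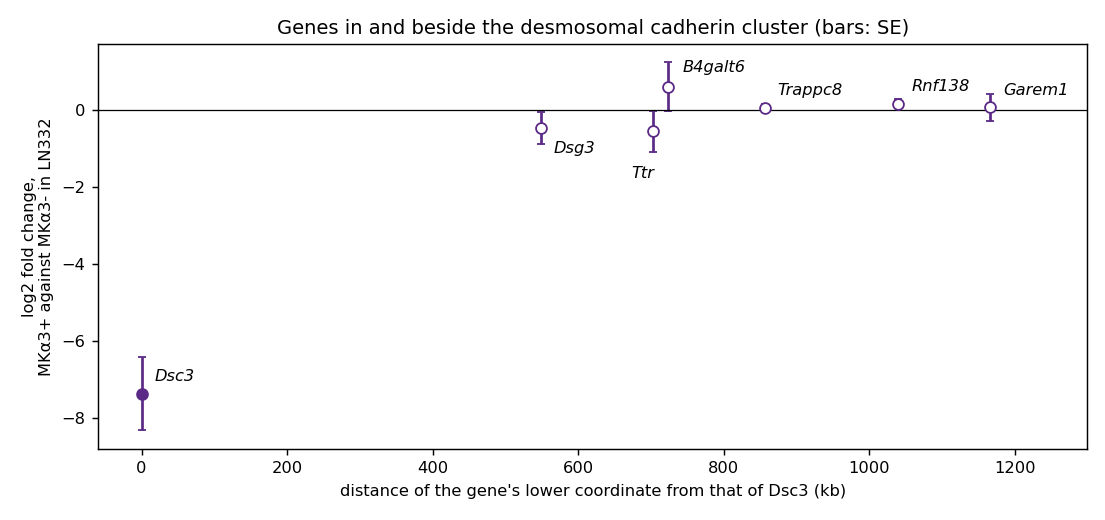
Log2 fold change between MKα3+ and MKα3- cells with LN332 for the 7 protein-coding genes of the table in and beside the desmosomal cadherin cluster, by the distance of the gene's lower coordinate from that of *Dsc3* in kb. Bars are SE, and the filled point passed the test: *Dsc3* at -7.36, while the others lie between -0.55 and 0.60.

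*Dsc3* had the widest span of group means among the 8 genes, 7.57 on the log2 CPM scale, followed by *Pkp2* with 3.38. The genes whose profile over the 4 group means was most like that of *Dsc3*, by Euclidean distance on the log2 CPM scale, were *Slc25a13* (distance 0.872), *Akip1* (1.03), *Sostdc1* (1.12), *Pi15* (1.44) and *Crispld1* (1.65). None lies on the same chromosome as *Dsc3*. The nearest, *Slc25a13*, had a mean with LN332 of 47.5 CPM in MKα3- cells and of 0.611 CPM in MKα3+ cells. These profiles rest on 4 group means from the same libraries, so that the list is a description.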

How the data were processed

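RNA-seq counts of 16 libraries were used. The authors aligned reads with Rsubread to mm10, summarized them by Entrez gene with featureCounts and its own annotation, and deposited raw counts without normalization. The strand setting is not given in the sources used here, and per the labels the submitters' notes also name bcl2fastq 2.20, edgeR and limma. Here, the counts were TMM-normalized with edgeR 4.0.16, and voom weights, contrasts and Benjamini-Hochberg adjusted p-values over all 14474 genes came from limma 3.58.1 in R 4.3.3, in 1 fit with a coefficient per group. The filter of CPM above 0.5 in at least 3 libraries removed 0 genes. Per-kilobase levels divide CPM by the union of exons in GENCODE M21, and positions are those of GRCm38 (mm10). Replicates differed by more than sampling noise (chi-square of at least 5.51 per degree of freedom). The genes, lists and comparisons were chosen with earlier results of these data known. Named genes were the 8 genes, at most 4 with values per list among those called, the cluster's neighbours and the 5 profiles nearest to *Dsc3*. Other list genes, among them those named without means and *Krt10*, *Krt15* and *Pkp4*, were picked once values had been seen. As alternatives, DESeq2 1.42.0, edgeR's quasi-likelihood test, other scalings, filters and fold limits, sample quality weights, a replicate block, only the groups compared, and leaving out each library were tried. The procedure was also run on simulated counts drawn independently for each library. They hold no effect of the replicate number, so that run does not test the procedure under such an effect.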

Additional observations from a re-analysis of the deposited data

Results flagged for a closer look

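In 3 of 32 sets of 4 libraries (8 genes in 4 groups), 1 library stood far from the other 3, where chance gives about 1 in 20, or 1.6. In vehicle-treated MKα3- replicate 3, *Dsc3* reached 111.9 CPM, while the other replicates of the group lay between 57.0 and 64.7 CPM. In the same library *Pkp2* was at 13.07 CPM and the other replicates between 19.7 and 20.4 CPM. In vehicle-treated MKα3+ replicate 1, *Perp* was at 363.6 CPM and the other replicates between 401 and 408 CPM. These libraries enter the contrast of LN332 against vehicle in their line, and in the comparison of the lines with LN332 they bear on the shared estimate of the spread.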

How the results depend on the processing

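Between the lines with LN332, *Dsc3*, *Pkp2* and *Perp* kept their direction under all alternatives that gave a value. *Perp* (-0.78) was no longer called with a minimum log2 fold change of 1, and *Dsc3* had no value with at least 10 counts in every library. Without each library in turn, 3 genes were called throughout. For LN332 in MKα3+ cells, 1 gene was called with sample quality weights, *Pkp1* at 0.51, and 0 without each library in turn. In MKα3- cells without each library in turn, between 0 and 1 were called. With library size alone, the LN332 estimate reversed for *Dsp* (-0.039) and *Pkp3* (-0.020) in MKα3+ cells and for *Dsc3* (-0.023) and *Pkp3* (-0.0022) in MKα3- cells, where the median of all genes moved to -0.085 and -0.082. Without each library in turn, the estimates that changed sign were those of *Dsp* between the lines with LN332 (-0.43 to 0.10) and with vehicle (-0.23 to 0.11), of *Dsp* (-0.14 to 0.29) and *Pkp2* (-0.19 to 0.36) with LN332 in MKα3+ cells, and of *Dsc3* (-0.29 to 0.32), *Dsp* (-0.13 to 0.40) and *Pkp2* (-0.042 to 0.20) with LN332 in MKα3- cells. The cause was not tested.

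Same-numbered libraries of different groups share only a number. Their deviations correlated with a mean r of 0.385 (24 pairs, 22 over 0.1, lowest -0.086). Of the libraries, 16 of 16 correlated best with their own number, a hint from the data and not the design. The mean r for different numbers was -0.12. It is no separate baseline, since deviations from a group mean sum to 0 within the group, which ties it to the first value. With the replicate block, the counts of called desmosome genes stayed at 3 between the lines with LN332, 0 with LN332 in MKα3+ cells, 0 with LN332 in MKα3- cells and 0 for the difference of the responses. Over all genes the block raised the count from 2987 to 3393 between the lines with LN332 and from 2676 to 3056 with vehicle. With the block, the other lists gave 1 further desmosome gene in each LN332 comparison (0 without), 7 keratins between the lines with LN332 (5 without, 7 with edgeR), 6 keratins between the lines in vehicle (3 without) and 3 with LN332 in MKα3- cells (1 without), 1 adherens junction gene with LN332 in MKα3- cells (0 without), and 1 and 2 regulators with LN332 in MKα3+ and MKα3- cells (0 without). Without the 4 libraries of replicate 1, chosen after seeing the data, the other lists gave 1 further desmosome gene in each LN332 comparison. They gave 6 keratins between the lines under each treatment, and 2 keratins and 2 regulators with LN332 in MKα3- cells. The share of all genes called without these 4 libraries is not given here, so nothing is read from these counts.

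Over all genes, the LN332 count in MKα3+ cells was 27 (25 higher), against 4 with edgeR, 123 with DESeq2, 3 (2 higher) with library size alone, 218 with the block, 454 with sample quality weights and 106 with only the groups compared. In MKα3- cells it was 44 (35 higher), against 165 (109 higher) with DESeq2, 74 (24 higher) with library size alone, 259 (157 higher) with the block, 123 with the weights and 1 with only the groups compared. Depth limits *Dsc3* in MKα3+ cells. The shares of *Dsc3* among desmocollins and of *Dsg3* among desmogleins were not run, since each was the only one of its kind with a row.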
